A study of Mus musculus with 40 samples.

Results

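The 10 genes described here encode regulators, receptors and signalling proteins of the T cell and natural killer (NK) cell lineages. They are Gata3, Tcf7, Bcl11b, Klrb1c, Cd3e, Lck, Eomes, Tbx21, Il2rb and Thy1, 10 of 21842 protein-coding genes in the annotation. Peaks were taken as theirs where the nearest protein-coding transcription start site to the summit was that of a member and lay within 50 kb. By this rule the genes held 116 of 224171 H3K27ac peaks and 271 of 548963 H3K4me1 peaks.

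The peaks came from sorted haematopoietic stem and progenitor cells of mice aged 21 days. H3K27ac and H3K4me1 were mapped by ChIPmentation, in which Tn5 transposase adds sequencing adapters to chromatin held by the antibody. Mice were wild type or of 5 mutant genotypes. Flt3-ITD is an internal tandem duplication of the receptor kinase gene Flt3, NUP98-HOXD13 joins a nucleoporin to a homeodomain factor, and Runx1-het is the label for altered Runx1. The others were the doubles Flt3-ITD/Runx1-het and Flt3-ITD/NUP98-HOXD13. Of 40 samples, 39 carried a mark, and 1 was an input. Groups had 3 samples, except 3 groups of 4, which were both marks of Flt3-ITD/NUP98-HOXD13 and H3K27ac of NUP98-HOXD13. The source names of both Runx1-het genotypes join Runxf and Vav. The exact alleles, the zygosity of Flt3-ITD, the driver of the fusion and the sorting gates are not stated in the labels. Each group gave 1 pooled peak list, so there is no value per animal and no test between genotypes. Read depth is unknown, and a gene without a peak is one where nothing passed the authors' threshold.

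H3K27ac marks active promoters and enhancers, and H3K4me1 marks enhancers whether or not they are active. In progenitors, H3K4me1 without H3K27ac is often described as a primed state. T and NK cells both descend from lymphoid progenitors. GATA3, TCF7 and BCL11B drive T cell specification and commitment, T-bet (Tbx21) and EOMES drive NK and effector T cell programmes, and CD3E, LCK, IL2RB, KLRB1C (the NK1.1 antigen) and THY1 act at or beneath the cell surface.

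Against the labelled cell type, 11 to 14 of 15 stem and progenitor genes had a promoter H3K27ac peak (any peak base within 1 kb of a start site) across the 6 lists. The same held for 6 to 7 of 15 B lymphoid genes, 3 to 8 of 15 granulocyte genes, 12 of 12 ubiquitous genes and 0 of 15 genes not expressed in blood. The H3K27ac lists held 31978 to 43363 peaks and the H3K4me1 lists 72682 to 117039. Wild type had the longest H3K27ac list and the narrowest peaks, with a median width of 389 bp against 586 to 888 bp in the mutants. Peaks on chromosome Y numbered 5 in both Runx1-het H3K27ac lists and 0 or 1 in the others, and the Xist start carried H3K27ac in the others alone. The sex of the pooled animals is not stated in the labels, and all 10 members are autosomal.

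Start-site sequences are shown for Lck, the 1 member with promoter peaks of both marks in all 6 genotypes, for Gata3, whose H3K27ac was absent from both lists with the fusion, and for Eomes, which had H3K4me1 and no H3K27ac. They are RefSeq sequences of GRCm38.p6, the strand of the gene, 5′ to 3′, ending at the base before the start site. The Lck proximal sequence stops short of an annotated exon. Capitals mark matches to the searched motifs.
Lck distal start, chr4:129573642-129573891, minus strand: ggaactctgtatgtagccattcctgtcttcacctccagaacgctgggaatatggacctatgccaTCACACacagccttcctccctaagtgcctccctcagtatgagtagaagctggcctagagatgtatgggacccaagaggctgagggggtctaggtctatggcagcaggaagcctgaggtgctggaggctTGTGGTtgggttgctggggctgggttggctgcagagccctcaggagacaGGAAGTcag
Lck proximal start, chr4:129558392-129558622, minus strand: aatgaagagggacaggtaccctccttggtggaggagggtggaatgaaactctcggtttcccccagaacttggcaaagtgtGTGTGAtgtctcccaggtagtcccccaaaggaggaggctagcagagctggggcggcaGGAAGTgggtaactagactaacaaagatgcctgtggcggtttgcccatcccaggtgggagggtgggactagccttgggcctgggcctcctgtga
Gata3 start, chr2:9878601-9878850, minus strand: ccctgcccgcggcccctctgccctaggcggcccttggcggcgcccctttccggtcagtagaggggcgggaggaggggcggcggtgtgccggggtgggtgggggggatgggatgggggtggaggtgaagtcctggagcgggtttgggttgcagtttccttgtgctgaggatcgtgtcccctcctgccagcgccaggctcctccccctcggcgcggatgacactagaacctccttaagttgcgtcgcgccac
Eomes start, chr9:118477939-118478188, plus strand: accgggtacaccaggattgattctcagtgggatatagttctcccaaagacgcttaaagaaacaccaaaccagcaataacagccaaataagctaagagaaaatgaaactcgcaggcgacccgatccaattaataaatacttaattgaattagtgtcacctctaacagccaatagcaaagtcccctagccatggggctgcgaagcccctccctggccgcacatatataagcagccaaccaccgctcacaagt
In the Lck distal sequence the capitals are, in order, a T-box match (TCACAC), a RUNX match (TGTGGT) and an ETS match (GGAAGT). The Lck proximal sequence has a T-box match on the other strand and an ETS match. The Gata3 and Eomes sequences had no match to any motif searched. Motifs were searched on both strands in the 250 bases before each RefSeq start. The GATA motif (AGATAA) occurred in 9.99% of 32851 promoters, RUNX in 14%, TCF/LEF (CTTTGA) in 13.8%, T-box in 12.3%, ETS in 19.7%, the E-box (CAGCTG) in 13% and STAT (TTCNNNGAA) in 7.02%. Among 10 RefSeq promoters of the 8 members that matched, ETS occurred in 7, T-box in 3, RUNX in 2, TCF/LEF and E-box in 1 each, and GATA and STAT in 0. These are matches of letters and not binding sites.

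The genes fell into 3 kinds by their H3K27ac. Bcl11b, Cd3e and Eomes had no H3K27ac peak in any list. Klrb1c, Lck, Tcf7, Tbx21 and Il2rb had H3K27ac in all 6 lists. Gata3 had it in the 4 lists without the fusion and in neither list with it, and Thy1 had 1 peak, in Flt3-ITD/Runx1-het.

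Members with at least 1 H3K27ac peak numbered 6 in wild type, where 49.3% of all genes had one, 6 in Flt3-ITD (49.3%) and 5 in NUP98-HOXD13 (49.7%). They numbered 6 in the Runx1-het list (46.2%), 5 in Flt3-ITD/NUP98-HOXD13 (49.6%) and 7 in the Flt3-ITD/Runx1-het list (51.3%). With 10 genes these counts are near the share over all genes. For H3K4me1 the members numbered 7 in wild type (51% of all genes), 8 in Flt3-ITD (55.4%) and 8 in NUP98-HOXD13 (54.7%). The counts were 6 in the Runx1-het list (49.2%), 8 in Flt3-ITD/NUP98-HOXD13 (55.4%) and 10 in the Flt3-ITD/Runx1-het list (59.9%), the longest H3K4me1 list.

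Promoter H3K27ac stood at 1 or 2 of the 10 members, a lower share than over all genes in each list. Promoter H3K4me1 had a higher share than over all genes in each list. With 10 genes neither difference was tested. A promoter peak stood at 2 of the 10 in wild type (40% of all genes), 1 in Flt3-ITD (43.5%), 2 in the NUP98-HOXD13 list (45.6%), 1 in the Runx1-het list (39.9%), 2 in Flt3-ITD/NUP98-HOXD13 (45.9%) and 2 in the Flt3-ITD/Runx1-het list (46.6%). Lck supplied 1 of these in every list, and the other was Klrb1c in wild type, NUP98-HOXD13 and Flt3-ITD/NUP98-HOXD13 or Gata3 in Flt3-ITD/Runx1-het. Promoter H3K4me1 stood at 4 of the 10 in wild type (23.1% of all genes), 4 in Flt3-ITD (30.2%), 4 in the NUP98-HOXD13 list (31.1%), 3 in the Runx1-het list (22.9%), 4 in Flt3-ITD/NUP98-HOXD13 (32.6%) and 4 in the Flt3-ITD/Runx1-het list (32.8%). Lck and Klrb1c carried it in all 6 lists, Eomes and Thy1 in 4 each and Gata3 in 3.

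**Figure D1:**
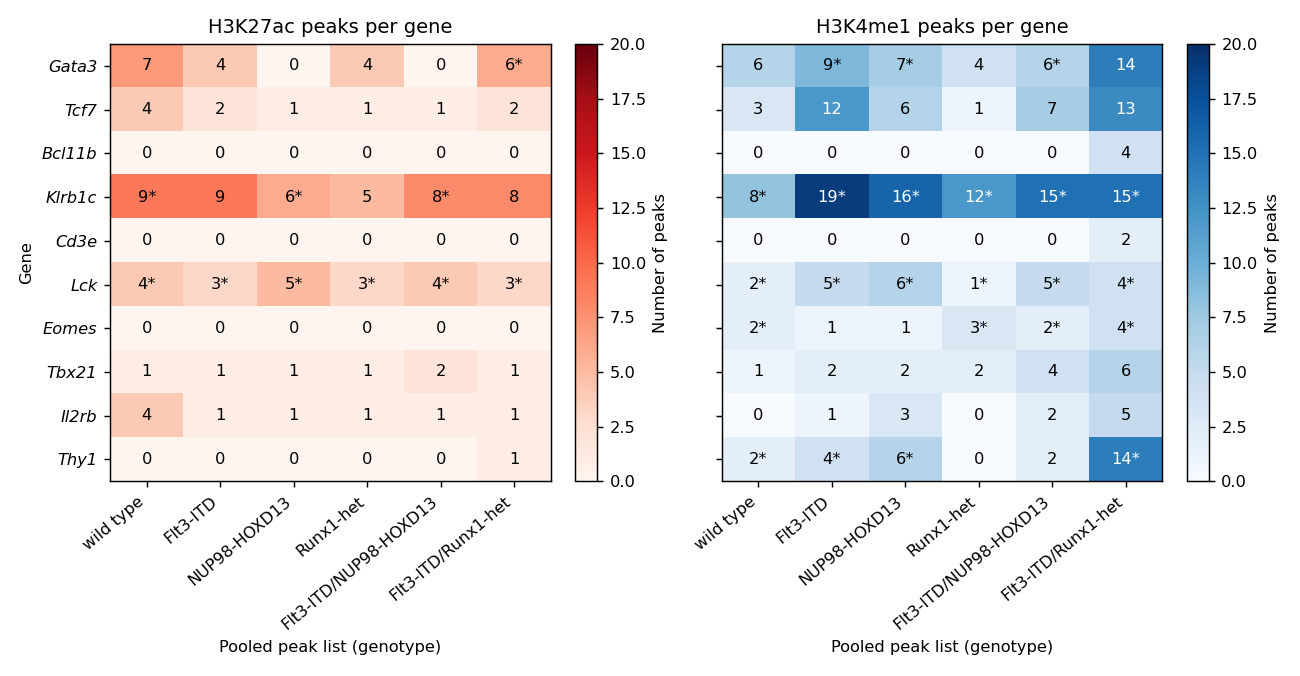
Number of H3K27ac (left) and H3K4me1 (right) peaks assigned to each of the 10 genes (rows) in each pooled list (columns), with colour and printed number giving the count and an asterisk marking a peak within 1 kb of a start site. The Gata3 row shows 0 H3K27ac peaks in both lists with the fusion, and the Bcl11b, Cd3e and Eomes rows show 0 H3K27ac peaks throughout.

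Gata3, on the minus strand of chromosome 2 (9857078 to 9890034, mm10), had 7 H3K27ac peaks in the wild type, 4 in Flt3-ITD, 4 in Runx1-het and 6 in the Flt3-ITD/Runx1-het list. NUP98-HOXD13 and Flt3-ITD/NUP98-HOXD13 had 0 each. In bulk cells, fewer cells with the mark and less of it per cell cannot be told apart. The peaks formed 3 regions inside the gene body, downstream of the start site at 9878600. The fold enrichment given here and below is the authors' value for a peak over control and ranks peaks within its own list only, as does the percentile.

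The region farthest into Gata3, at 9.31 kb from that start site (chr2:9867620-9871246, overlapping an exon), had a fold enrichment of 4.77 in wild type, 8.83 in Flt3-ITD, 6.22 in Runx1-het and 7.71 in the Flt3-ITD/Runx1-het list. These peaks stood at the percentiles 58.3, 81.1, 65.7 and 80.5 of their lists, so they were of middling to high rank. The intronic region beside it at 5.42 kb (chr2:9871322-9874243) had 5.66, 7.13, 5.66 and 6.02 in the same 4 lists. The region nearest the start site (chr2:9875667-9877676, overlapping an exon) was listed in wild type (3.35), Flt3-ITD (4.73) and Flt3-ITD/Runx1-het (5.84). None of the 3 was in either list with the fusion.

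H3K4me1 was listed at Gata3 in all 6 genotypes, with 6 peaks in the wild type, 9 in Flt3-ITD, 7 in the NUP98-HOXD13 list, 4 in the Runx1-het list, 6 in Flt3-ITD/NUP98-HOXD13 and 14 in the Flt3-ITD/Runx1-het list. Intronic regions at 8.98 kb (chr2:9868975-9870935) and 5.18 kb (chr2:9871397-9874225), which lie over the acetylated ones, were in all 6 lists. The former had fold enrichments of 5.52, 5.04, 5.19, 6.67, 3.09 and 4.93 in the order wild type, Flt3-ITD, NUP98-HOXD13, Runx1-het, Flt3-ITD/NUP98-HOXD13 and then Flt3-ITD/Runx1-het. Thus the fusion lists held H3K4me1 and no H3K27ac over the same introns.

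Gata3 H3K4me1 peaks that overlapped an H3K27ac peak of the same genotype numbered 4 of 6 in wild type, 6 of 9 in Flt3-ITD, 2 of 4 in Runx1-het and 8 of 14 in the Flt3-ITD/Runx1-het list. They numbered 0 of 7 in NUP98-HOXD13 and 0 of 6 in the Flt3-ITD/NUP98-HOXD13 list. The H3K4me1 peaks at Gata3 in the fusion lists were of low significance in the authors' calls, as were most peaks of those lists. The strongest at Gata3 reached a −log10 q of 4.03 in NUP98-HOXD13 and 4.04 in the Flt3-ITD/NUP98-HOXD13 list, and none remained at a threshold of 5, which 7.23% and 20.6% of all peaks in those lists reached. At that threshold the H3K27ac counts at Gata3 were 2 in wild type, 3 in Flt3-ITD, 3 in Runx1-het, 4 in Flt3-ITD/Runx1-het and 0 in both fusion lists.

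At the promoters of Gata3 the fusion lists had H3K4me1 regions that the others lacked. The region chr2:9878129-9878599, just downstream of the start site at 9878600, was listed in NUP98-HOXD13 (4.44) and Flt3-ITD/NUP98-HOXD13 (4.63) and in no other list. Flt3-ITD/NUP98-HOXD13 alone had a region at −0.804 kb (chr2:9879308-9879683, 3.87), and NUP98-HOXD13 alone had chr2:9890385-9890514 (3.15) upstream of the distal start site at 9890034. Flt3-ITD alone had chr2:9889293-9889819 (4.83), which overlaps an exon at the distal start and the span of 9230102O04Rik, another protein-coding gene. The printed Gata3 sequence lay outside every peak of both marks. For H3K4me1, a region at 2.65 kb (chr2:9875657-9876145) was held by the 4 lists without the fusion and by neither list with it. Its fold enrichment was 5.87 in wild type, 2.69 in Flt3-ITD, 4.69 in Runx1-het and 3.18 in the Flt3-ITD/Runx1-het list. The percentiles were 87.1, 2.62, 57.8 and 7.5, so it ranked near the bottom of the Flt3-ITD and Flt3-ITD/Runx1-het lists. Of 8 member H3K4me1 regions in all 4 lists without the fusion, 1 was in neither fusion list, against 473 of 16612 near any gene.

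**Figure D2:**
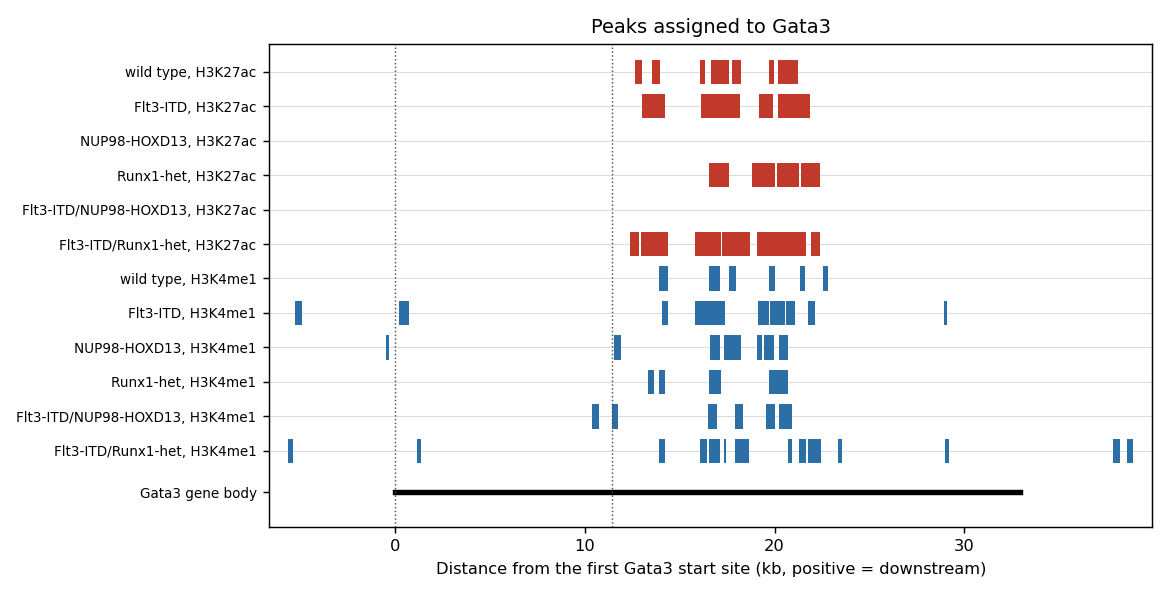
Peaks assigned to Gata3 by pooled list (rows), H3K27ac in red and H3K4me1 in blue, against the distance in kb from the first Gata3 start site, with dotted lines at both start sites and the gene body in black. The red peaks of the 4 lists without the fusion stand inside the gene downstream of the second start site, and the rows of NUP98-HOXD13 and Flt3-ITD/NUP98-HOXD13 hold no red peak but 7 and 6 blue ones.

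Across all members, 11 H3K27ac regions were in all 4 lists without the fusion, and 3 of these were in neither list with it. They were 2 Gata3 regions and the Klrb1c region at −4.45 kb, whose wild-type peak stood at the percentile 0.619 of its list. Of 12868 such regions near any gene, 231 (1.8%) were in neither fusion list. This pattern was looked for after the Gata3 counts were seen, so the shares are a description. The fusion H3K27ac lists pool 4 samples each and the others 3, and whether the number of samples plays a part was not tested. The assignment to Gata3 also rests on its start site at 9878600. With only the most 5′ start site of each gene, every H3K27ac peak described above went to 4930412O13Rik, a gene within the span of the longer Gata3 transcript. Gata3 then had 2 other H3K27ac peaks in wild type and 1 in Flt3-ITD, of which the nearest starts at chr2:9925015, and 0 in the 4 other lists.

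Tcf7, which encodes TCF-1, lies on the minus strand of chromosome 11 (52252371 to 52283014). It had 4 H3K27ac peaks in the wild type, 2 in Flt3-ITD, 1 in the NUP98-HOXD13 list, 1 in the Runx1-het list, 1 in Flt3-ITD/NUP98-HOXD13 and 2 in the Flt3-ITD/Runx1-het list. The region common to all 6 lists stood 35.6 kb upstream (chr11:52318001-52319777), with fold enrichments between 3.47 and 4.58. These ranked between the percentiles 21.5 and 52.8 of their lists, in the lower to middle part. A second upstream region at −27.7 kb (chr11:52310433-52311346) was in wild type (3.02) and Flt3-ITD (3.53). No list had a peak of either mark at a Tcf7 promoter.

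H3K4me1 peaks at Tcf7 numbered 3 in wild type, 12 in Flt3-ITD, 6 in the NUP98-HOXD13 list, 1 in the Runx1-het list, 7 in Flt3-ITD/NUP98-HOXD13 and 13 in the Flt3-ITD/Runx1-het list. They formed 19 regions, none in all 6 lists. Intronic regions at 16.8 kb (chr11:52265651-52266447) and 14.2 kb (chr11:52267341-52269035) were in the 4 lists with Flt3-ITD or the fusion and in neither wild type nor Runx1-het. In those 4 lists the region at 16.8 kb had fold enrichments of 4.41 (Flt3-ITD), 4.92 (NUP98-HOXD13), 5.87 (Flt3-ITD/Runx1-het) and 5.09 (Flt3-ITD/NUP98-HOXD13). Wild type instead had H3K27ac at both sites, as regions held by no other list, at 4.34 (percentile 48.1 of its list) and 3.02 (percentile 7.32). Of the Tcf7 H3K4me1 peaks, 1 of 3, 3 of 12, 1 of 6, 0 of 1, 1 of 7 and 0 of 13 overlapped H3K27ac, in the order of genotypes above.

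Bcl11b, the commitment factor, lies on chromosome 12 (107910403 to 108003602). It had no peak of either mark in 5 genotypes and 4 H3K4me1 peaks in Flt3-ITD/Runx1-het. The strongest of these, 25.9 kb downstream of a start site in an intron (chr12:107977235-107977658), had a fold enrichment of 5.14 and a −log10 q of 4.41. It ranked at the percentile 74.4 of the longest H3K4me1 list, in which 17.5% of all peaks reached a −log10 q of 5.

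Lck, the proximal kinase of T cell receptor signalling, had peaks of both marks that reached within 1 kb of its distal start in every list. The strongest peak of each list had its summit farther out, between 1.14 and 2.06 kb upstream of that start. The gene, on the minus strand of chromosome 4 (129548344 to 129573641), is known for a distal promoter and a proximal promoter, the latter used mainly in thymocytes. H3K27ac peaks numbered 4 in wild type, 3 in Flt3-ITD, 5 in the NUP98-HOXD13 list, 3 in the Runx1-het list, 4 in Flt3-ITD/NUP98-HOXD13 and 3 in the Flt3-ITD/Runx1-het list.

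The region at −1.26 kb from the distal start (chr4:129574380-129575877) was in all 6 H3K27ac lists. Its fold enrichment was 15.5 in wild type, 19.2 in Flt3-ITD, 12.2 in the NUP98-HOXD13 list, 15.5 in the Runx1-het list, 13.6 in Flt3-ITD/NUP98-HOXD13 and 10.1 in the Flt3-ITD/Runx1-het list. The percentiles ran from 87.1 to 97, so in each list it was among the stronger peaks. The H3K4me1 region there (chr4:129573605-129575465) was also in all 6, with 17.2, 15.1, 6.63, 17.1, 10.2 and 13.4 in the same order and percentiles from 97.9 to 100. It overlaps the printed distal sequence, of which H3K4me1 peaks covered 250 of 250 bases in Flt3-ITD/Runx1-het, 213 in Flt3-ITD/NUP98-HOXD13, 131 in NUP98-HOXD13, 106 in Flt3-ITD, 3 in wild type and 0 in Runx1-het. The start of Fam167b, the upstream neighbour, lies 4.91 kb from Lck.

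A second region, at the proximal start and downstream of it (chr4:129555245-129559208), was likewise in all 6 H3K27ac lists. Its fold enrichment ran from 4.95 (Runx1-het and Flt3-ITD/Runx1-het) to 10.4 (NUP98-HOXD13). The printed proximal sequence lay wholly within H3K27ac in Flt3-ITD, NUP98-HOXD13 and both double mutants. In wild type and Runx1-het the peaks began farther downstream and covered none of it. H3K4me1 at the proximal start (chr4:129557234-129559236) followed the same 4 lists, with 3.88 in Flt3-ITD, 4.28 in NUP98-HOXD13, 3.56 in Flt3-ITD/NUP98-HOXD13 and 6.23 in the Flt3-ITD/Runx1-het list.

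Just upstream of the distal start, H3K27ac was listed at −0.18 kb (chr4:129573649-129574269) in wild type (4.95), NUP98-HOXD13 (4.74) and Flt3-ITD/NUP98-HOXD13 (3.48). NUP98-HOXD13 alone had an intronic H3K4me1 region at 0.626 kb (chr4:129572987-129573116, 3.64). Most Lck H3K4me1 peaks overlapped H3K27ac. The counts were 2 of 2, 3 of 5, 5 of 6, 1 of 1, 5 of 5 and 3 of 4 in the order wild type, Flt3-ITD, NUP98-HOXD13, Runx1-het, Flt3-ITD/NUP98-HOXD13 and then Flt3-ITD/Runx1-het.

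Klrb1c, the NK1.1 antigen gene, had the most peaks of the 10. The gene lies on the minus strand of chromosome 6 (128778485 to 128789215) in the Nkrp1 gene family, whose members are alike in sequence, so the placing of reads among family members is uncertain. H3K27ac peaks numbered 9 in wild type, 9 in Flt3-ITD, 6 in the NUP98-HOXD13 list, 5 in the Runx1-het list, 8 in Flt3-ITD/NUP98-HOXD13 and 8 in the Flt3-ITD/Runx1-het list. H3K4me1 peaks numbered 8, 19, 16, 12, 15 and 15 in that order.

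The strongest Klrb1c region stood 28.1 kb downstream of a start site, beyond the 3′ end of the gene (chr6:128759899-128761144). Its H3K27ac fold enrichment was 22.5 in wild type, 17.6 in Flt3-ITD, 15.1 in the NUP98-HOXD13 list, 24.1 in the Runx1-het list, 23.5 in Flt3-ITD/NUP98-HOXD13 and 15.5 in the Flt3-ITD/Runx1-het list. At percentiles of 94.1 to 99 this was a high-ranking peak of each list. A weaker region at 24 kb (chr6:128764112-128764983) was in 5 lists, with 3.72 to 5.42, and was missing from Runx1-het.

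Upstream of Klrb1c, H3K27ac regions at −6.94 kb (chr6:128795428-128797749) and −10.3 kb (chr6:128798881-128800490) were in all 6 lists. In each list the latter had the higher fold enrichment of the pair, between 9.28 and 14.3. Both lie within the span of Gm44511, another protein-coding gene model. H3K4me1 at −6.97 kb (chr6:128795466-128796567) was in all 6 lists as well, with 5.55 to 10.8. The region at −4.45 kb (chr6:128793353-128794315) was in the 4 lists without the fusion, with 2.44 in wild type, 3.37 in Flt3-ITD, 6.14 in Runx1-het and 3.66 in the Flt3-ITD/Runx1-het list. These peaks stood at the percentiles 0.619, 21.1, 65.5 and 28.3 of their lists, so the wild-type peak was among the weakest of its list.

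Around the Klrb1c start sites, the presence of H3K27ac varied between lists. A region at −0.424 kb (chr6:128789419-128790369) was in wild type (3.35), NUP98-HOXD13 (4.5) and Flt3-ITD/NUP98-HOXD13 (4.83), and wild type alone had chr6:128787422-128787611 (3.35). Both wild-type peaks stood at the percentile 15.9 of their list, and the others at 55.6 and 54.5. Intragenic regions at 3.75 kb (chr6:128783651-128785232) and 1.33 kb (chr6:128786769-128787404) were each in Flt3-ITD and 1 double mutant, Flt3-ITD/NUP98-HOXD13 for the former and Flt3-ITD/Runx1-het for the latter. H3K4me1 at −0.938 kb (chr6:128789108-128790354) was in all lists except Runx1-het, with 3.93 to 5.51. H3K4me1 at −0.172 kb (chr6:128788161-128788923) was in NUP98-HOXD13, Runx1-het and both double mutants, and in neither wild type nor Flt3-ITD.

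**Figure D3:**
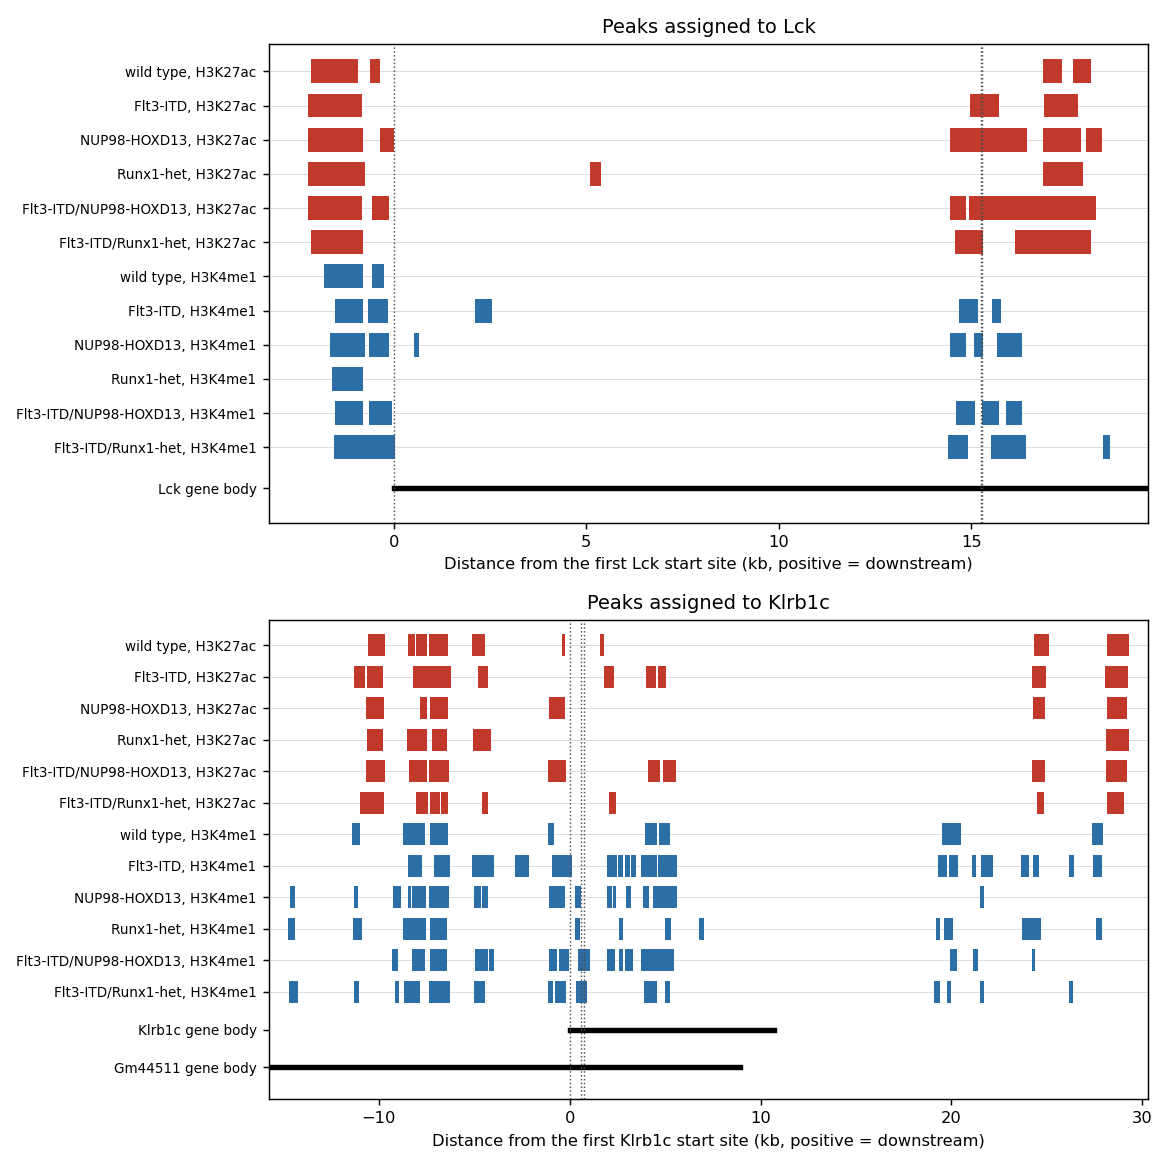
Peaks assigned to Lck (top) and Klrb1c (bottom) by pooled list (rows), H3K27ac in red and H3K4me1 in blue, against the distance in kb from the first start site of the gene, with dotted lines at start sites and gene bodies in black. At Lck the peak upstream of the distal start is in all 12 rows, and at Klrb1c the red peaks 28.1 kb downstream are in all 6 H3K27ac rows.

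Tbx21 and Il2rb, which encode T-bet and the beta chain of the interleukin 2 and interleukin 15 receptors, each had 1 upstream H3K27ac region in all 6 lists. The Tbx21 region at −12.1 kb (chr11:97126499-97128052) had a fold enrichment of 3.72 in wild type, 4.78 in Flt3-ITD, 7.13 in the NUP98-HOXD13 list, 5.19 in the Runx1-het list, 5.32 in Flt3-ITD/NUP98-HOXD13 and 7.98 in the Flt3-ITD/Runx1-het list. The Il2rb region at −15.4 kb (chr15:78509663-78511901) had 6.67, 6.79, 3.83, 3.52, 5.23 and 4.54 in that order. Neither gene had a promoter peak of either mark in any list. The number of their H3K4me1 peaks differed between lists. Tbx21 had 1, 2, 2, 2, 4 and 6 H3K4me1 peaks in the same order, and Il2rb had 0, 1, 3, 0, 2 and 5.

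Eomes, Cd3e and Thy1 had little or no H3K27ac. Eomes, on chromosome 9 (118478212 to 118486132), had 2 H3K4me1 peaks in the wild type, 1 in Flt3-ITD, 1 in the NUP98-HOXD13 list, 3 in the Runx1-het list, 2 in Flt3-ITD/NUP98-HOXD13 and 4 in the Flt3-ITD/Runx1-het list. Its promoter region at −0.818 kb (chr9:118476971-118477733) was in Runx1-het (4.23), Flt3-ITD/Runx1-het (5.14) and Flt3-ITD/NUP98-HOXD13 (3.87). A second at −0.256 kb (chr9:118477804-118478187) was in wild type (3.38) and Flt3-ITD/NUP98-HOXD13 (3.1), where H3K4me1 covered 249 and 202 of the 250 bases printed above. No Eomes H3K4me1 peak overlapped H3K27ac in any genotype.

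Cd3e, a chain of the CD3 complex that mature T cells carry, had 2 H3K4me1 peaks in Flt3-ITD/Runx1-het (5.51 and 3.33) and no other peak of either mark. Thy1, a surface protein of mouse T cells, had 2 H3K4me1 peaks in the wild type, 4 in Flt3-ITD, 6 in the NUP98-HOXD13 list, 0 in the Runx1-het list, 2 in Flt3-ITD/NUP98-HOXD13 and 14 in the Flt3-ITD/Runx1-het list. Runx1-het and Flt3-ITD/Runx1-het thus held the fewest and the most, and they are also the shortest and the longest H3K4me1 lists (72682 and 117039 peaks). A Thy1 promoter region (chr9:44044771-44045216) was in wild type (4.16), NUP98-HOXD13 (4.12), Flt3-ITD (3.88) and Flt3-ITD/Runx1-het (6.96), and the last alone had chr9:44042878-44043198 (3.46). The only Thy1 H3K27ac peak, at −10.2 kb in Flt3-ITD/Runx1-het (chr9:44033057-44033549), had 3.53.

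Merging the lists of a mark by 1 bp overlap gave 25 H3K27ac regions near the members, of 53674 near any gene. In all 6 lists were 8 of the 25, or 32% (95% Wilson interval 17.2 to 51.6), against 22.5% over all genes. In 1 list were 7, or 28% (14.3 to 47.6), against 48.9%. The 8 were 3 at Klrb1c, 2 at Lck and 1 each at Tcf7, Tbx21 and Il2rb, and 5 of the 7 were held by wild type alone, which held 24.2% of the 26268 regions near any gene that were in 1 list. The intervals cover counting error only, and regions of 1 gene are not independent.

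For H3K4me1 the regions near members numbered 106 of 137959. Only 6 (5.66%, 2.62 to 11.8) were in all 6 lists, against 10.3% over all genes, and 55 (51.9%, 42.5 to 61.2) were in 1 list, against 48.3%. The 6 stood at Klrb1c (3), Gata3 (2) and Lck (1). Flt3-ITD/Runx1-het alone held 30 of the 55, against 31.6% of the 66611 such regions near any gene. It held 71 of the 106 regions in all, against 49.9% of those near any gene, and the other lists held 21 to 43.

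The design asks what each mutation does to these loci against wild type, and what Flt3-ITD adds to each of the other mutations. A region is called gained where the mutant list holds it and the reference does not, and lost where it is the other way round. The 5 comparisons with wild type share the wild-type list and are not independent. For H3K27ac, Flt3-ITD had 2 regions gained and 7 lost, and 50.5% of all changed regions were gains. NUP98-HOXD13 had 0 and 10 (45.5%), Runx1-het 1 and 10 (41%), Flt3-ITD/NUP98-HOXD13 1 and 10 (50.4%), and Flt3-ITD/Runx1-het 2 and 8 (58.5%).

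By gene, the 10 regions lost in NUP98-HOXD13 were 3 at Gata3, 3 at Tcf7, 2 at Klrb1c and 2 at Il2rb. In Runx1-het they were 1 at Gata3, 3 at Tcf7, 3 at Klrb1c, 1 at Lck and 2 at Il2rb. The wild-type H3K27ac peaks near members were mostly of low significance. Of 29, 9 (31%) reached a −log10 q of 5, against 37.7% of all peaks of that list. With that threshold in every list the direction turned, to 5 gained of 5 changed in Flt3-ITD, 3 of 4 in the Runx1-het list, 4 of 6 in Flt3-ITD/NUP98-HOXD13 and 3 of 3 in the Flt3-ITD/Runx1-het list, while NUP98-HOXD13 had 2 of 5. With lists of equal length (31978 peaks), Flt3-ITD also turned, to 5 of 7. It did so too where peaks had to cover 0.5 of a region, to 7 of 12. Gained shares over all genes were not computed at these settings. Of all H3K27ac peaks, 42.8% to 66.3% reached a −log10 q of 5 in the mutant lists, against 37.7% in wild type.

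When Flt3-ITD was added to NUP98-HOXD13, the members gained 1 H3K27ac region, at Klrb1c, and lost 0 (57.1% gains over all genes). Added to Runx1-het, it came with 4 gained and 1 lost (68.1%). The gains were 2 at Klrb1c, 1 at Gata3 and 1 at Thy1, and the loss was at Lck.

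For H3K4me1 against wild type, Flt3-ITD had 29 gained and 7 lost (64.2% gains over all genes), NUP98-HOXD13 21 and 10 (60.4%), and Runx1-het 11 and 11 (49.8%). Flt3-ITD/NUP98-HOXD13 had 26 and 11 (65.6%), and Flt3-ITD/Runx1-het 57 and 7 (69.4%). The gained share was 89.1% (79.1 to 94.6) in Flt3-ITD/Runx1-het and 80.6% (65 to 90.2) in Flt3-ITD, both higher than over all genes. Those of NUP98-HOXD13, Runx1-het and Flt3-ITD/NUP98-HOXD13 were 67.7%, 50% and 70.3%, also higher, with intervals that include the share over all genes. The intervals cover counting error only and regions of 1 gene are not independent, so they are not a test. The 57 gains of the double mutant were spread over all 10 genes, with 12 at Thy1, 11 at Tcf7 and 7 at Gata3. With a −log10 q of at least 5 the share in Flt3-ITD/Runx1-het was 50%, from 6 of 12 regions, that in Flt3-ITD was 56.2%, from 9 of 16, and those of NUP98-HOXD13 and Flt3-ITD/NUP98-HOXD13 turned to 0 of 9 and 4 of 12. With equal-length lists the Flt3-ITD share was 72.4%, from 21 of 29. Gained shares over all genes were not computed at either setting, so whether these shifts are particular to the members was not tested. Of all H3K4me1 peaks, 34% in wild type reached a −log10 q of 5, but only 7.23% in NUP98-HOXD13. The other lists named here had 17.5% (Flt3-ITD/Runx1-het), 20.6% (Flt3-ITD/NUP98-HOXD13) and 24.8% (Flt3-ITD).

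Flt3-ITD/NUP98-HOXD13 against NUP98-HOXD13 had 17 H3K4me1 regions gained and 13 lost near members (55.4%). With equal-length lists it had 9 gained of 23 changed, the other direction, and no share over all genes was computed there. The other double mutant against its Runx1-het parent had 57 and 7 (70.1%). In the latter, Thy1 had 14 gained and 0 lost, Tcf7 11 and 0, and Gata3 8 and 1. Flt3-ITD/Runx1-het also has the most and the narrowest H3K4me1 peaks of all lists, 117039 with a median width of 296 bp, and the part of this in the gains was not tested beyond the equal-length lists, in which it kept 52 peaks near members against 81.

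**Figure D4:**
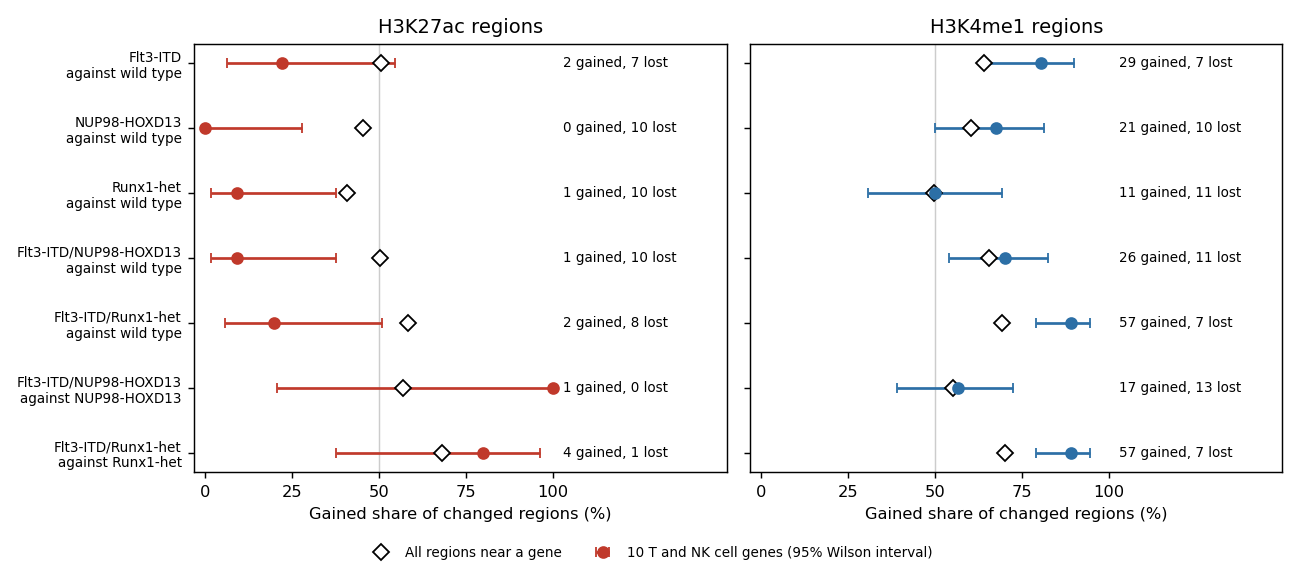
Gained share of the changed regions near the 10 genes (filled circles, with 95% Wilson intervals for counting error) and near all genes (open diamonds) in each comparison, for H3K27ac (left) and H3K4me1 (right), in percent. The H3K27ac circles of the 5 comparisons with wild type run from 0 to 22.2%, left of the diamonds, and the H3K4me1 circle of Flt3-ITD/Runx1-het stands at 89.1%.

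H3K4me1 peaks near members that overlapped an H3K27ac peak of the same genotype numbered 9 of 24 in wild type (37.5%, against 26.8% over all genes) and 20 of 53 in Flt3-ITD (37.7%, against 33.2%). They numbered 11 of 47 in the NUP98-HOXD13 list (23.4%, against 30.5%), 5 of 23 in the Runx1-het list (21.7%, against 31%), 13 of 43 in Flt3-ITD/NUP98-HOXD13 (30.2%, against 34.2%) and 19 of 81 in the Flt3-ITD/Runx1-het list (23.5%, against 30.8%). Each interval included the share over all genes, so at these counts no difference from it could be seen. In each list most member H3K4me1 peaks carried no listed H3K27ac. The overlap sat mainly at Lck, Klrb1c and, without the fusion, Gata3.

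**Figure D5:**
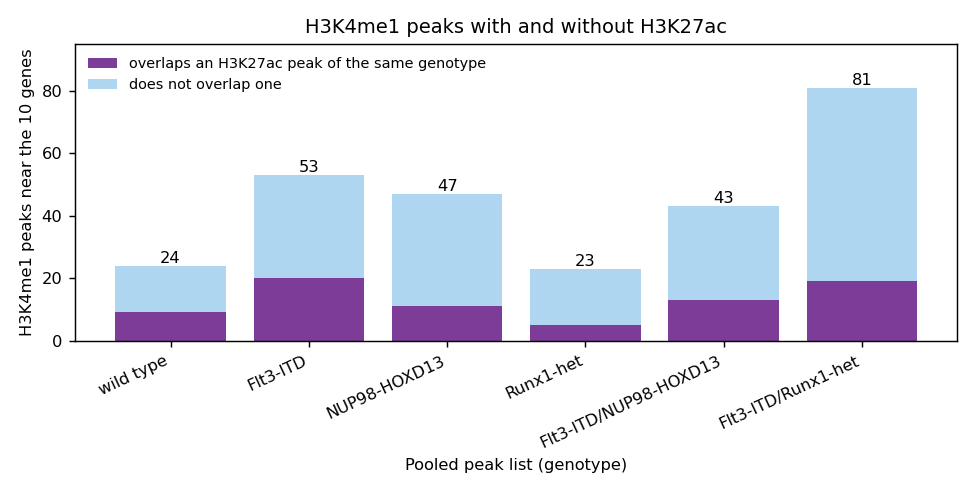
Number of H3K4me1 peaks near the 10 genes in each pooled list, split into those that overlap an H3K27ac peak of the same genotype by at least 1 bp (dark) and those that do not (light). The totals run from 23 in Runx1-het to 81 in Flt3-ITD/Runx1-het, and the dark part runs from 5 to 20 peaks.

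A wider list of 46 other T and NK cell genes was read the same way. Of these 46, 15 in wild type had a promoter H3K27ac peak, 13 in Flt3-ITD, 22 in the NUP98-HOXD13 list, 12 in the Runx1-het list, 16 in Flt3-ITD/NUP98-HOXD13 and 19 in the Flt3-ITD/Runx1-het list, or 26.1% to 47.8%, against 39.9% to 46.6% of all genes. The share was above that over all genes in NUP98-HOXD13 (47.8% against 45.6%) and below it in every other list. In no list did 22 of them have one. In all 6 lists were 11 genes, namely Cd28, Cd3d, Cd5, Ets1, Foxp3, Il15ra, Nkg7, Rag2, Runx3, Tcf12 and Zeb2, and Notch1 followed in 5. The shares of all genes in no list and in all 6 were not computed. Cd3d, which encodes another CD3 chain 23.8 kb from Cd3e, had fold enrichments of 15.2, 14.7, 14.9, 14.6, 19.6 and 12.3 in the order of genotypes above, where Cd3e had none. The other CD3 complex genes of the wider list, Cd3g and Cd247, had a promoter H3K27ac peak in no list. A peak within 1 kb of the start sites of several genes counts for each of them.

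The genes most like Klrb1c in the percentile of their strongest peak over the 12 lists were Pik3cg, Tcf12 and Ksr1, at Euclidean distances of 7.71, 8.56 and 8.61, against a median of 252.9 over all genes. Those most like Lck were Lpin2 (5.17), P2ry14 (5.9) and Il17ra (6.07), against a median of 249.1. These genes were picked as the nearest of all, so a gap to the median follows from the choice. Genes without a peak took the lowest value, so any gene with strong peaks in every list lies close to both members.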

How the data were processed

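Samples were grouped by genotype and mark from the labels. BWA, MACS2 and build mm10 (GRCm38) are named in the submitters' processing notes, without versions. Each deposited list, 1 per group, pools the group's samples. It gives per peak a deposited score (at most 1000), a deposited ratio (fold enrichment over control), the deposited −log10 p and −log10 q, and the summit position. Depth and the peak threshold are unknown.

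Start sites came from GENCODE mouse release 21, as 54374 sites of protein-coding transcripts of 21842 genes. Each peak went by its summit to the nearest site within 50 kb. Promoter ranges were 1 kb to either side. Peaks of the 6 lists of a mark were merged by 1 bp overlap, and regions compared as held or not held. Fold enrichments rank peaks within a list, and values printed for several lists are not a comparison between them. With pooled lists, no test was run. The procedure was tested on simulated data. Python 3.11.15, pandas 2.3.3, numpy 2.4.6, scipy 1.17.1 and matplotlib 3.10.9 were used.

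All 10 members were named, with every promoter region and every H3K27ac region held by 2 or more lists, up to 12 genes of the wider list and the 3 genes nearest in pattern to each of 2 members. Cd3g and Cd247 of the wider list were named in addition, beside Cd3d. The members and lists were chosen with earlier results of these data known. Summit sequences were planned, but RefSeq promoters, which matched 8 members, were used instead. Alternatives were a −log10 q of at least 5, equal-length lists, distances of 20 and 100 kb, the nearest peak edge, 1 start site per gene, promoters within 2 kb or by summit, merging up to 500 bp apart, and coverage of 0.5 of a region or peak. The input was not used.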

Additional observations from a re-analysis of the deposited data

How the results depend on the processing

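Of 436 values under 11 alternatives, 387 kept within their bounds. For shares, including members out of 10, the bounds were the Wilson interval in the deposited lists, which is wide at these counts. At a −log10 q of at least 5, a fall from 6 to 4 wild-type members with H3K27ac counted as kept. A fall from 20 to 14 Flt3-ITD H3K27ac peaks also did. The total pools unlike settings. By nearest peak edge and within 20 kb, 62 of 62 values were kept in each. At a −log10 q of at least 5, 28 were kept, 30 moved out of bounds and 4 reversed. Of 112 gained shares, 9 crossed 50%, namely 6 with a −log10 q of at least 5, 2 with equal-length lists and 1 with coverage of 0.5 of a region. Those marked reversed are the 4 whose interval in the deposited lists lay clear of 50%. No paired analysis was possible because each group is 1 pooled list, and leaving out a replicate was not possible for the same reason.

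With −log10 q of at least 5, member H3K27ac peaks fell to 9 in wild type, 9 in NUP98-HOXD13 and 14 in the Flt3-ITD/Runx1-het list. Member H3K4me1 peaks numbered 11, 13, 2, 8, 7 and 11 (wild type, Flt3-ITD, NUP98-HOXD13, Runx1-het, Flt3-ITD/NUP98-HOXD13, Flt3-ITD/Runx1-het). Members with an H3K4me1 peak numbered 2 in the NUP98-HOXD13 list, 3 in the Runx1-het list, 3 in Flt3-ITD/NUP98-HOXD13 and 5 in the Flt3-ITD/Runx1-het list, and those with a promoter peak 1 in wild type, Flt3-ITD, NUP98-HOXD13 and Runx1-het. H3K4me1 regions near members numbered 29, of which 65.5% were in 1 list. The gained share of H3K27ac regions against wild type was 100% in Flt3-ITD, 40% in the NUP98-HOXD13 list, 75% in the Runx1-het list (reversed), 66.7% in Flt3-ITD/NUP98-HOXD13 (reversed) and 100% in the Flt3-ITD/Runx1-het list. For H3K4me1 it was 56.2% in Flt3-ITD, 0% in NUP98-HOXD13 (reversed), 33.3% in Flt3-ITD/NUP98-HOXD13 (reversed) and 50% in the Flt3-ITD/Runx1-het list, 63.6% in Flt3-ITD/Runx1-het against Runx1-het, while Flt3-ITD/NUP98-HOXD13 set against NUP98-HOXD13 gave 100%. H3K4me1 peaks with H3K27ac made up 100% in the NUP98-HOXD13 list (2 of 2), 62.5% in the Runx1-het list, 57.1% in Flt3-ITD/NUP98-HOXD13 and 36.4% in the Flt3-ITD/Runx1-het list. This threshold leaves fewer peaks in each list, and the share left differs between lists. Gained shares over all genes were not computed under any alternative.

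In equal-length lists, member peaks numbered 18 (wild type, H3K27ac), 27 (Flt3-ITD/NUP98-HOXD13, H3K4me1) and 52 (Flt3-ITD/Runx1-het, H3K4me1). The gained share of H3K27ac regions against wild type was 71.4% in Flt3-ITD, 40% in Runx1-het and 40% in the Flt3-ITD/NUP98-HOXD13 list, and that of H3K4me1 in Flt3-ITD/NUP98-HOXD13 against NUP98-HOXD13 was 39.1%. Where peaks had to cover 0.5 of a region, the H3K27ac shares were 58.3% in Flt3-ITD, 36.4% in NUP98-HOXD13 and 41.7% in the Flt3-ITD/NUP98-HOXD13 list. Within 100 kb, 9 members had H3K27ac in Flt3-ITD/Runx1-het, and Gata3 then had 1 H3K27ac peak in Flt3-ITD/NUP98-HOXD13. With 1 start site per gene, 14.5% of H3K4me1 peaks had H3K27ac in Flt3-ITD/Runx1-het. By summit, promoter peaks in Runx1-het stood at 0 members for H3K27ac and 1 for H3K4me1. Merging peaks up to 500 bp apart left 70 H3K4me1 regions. The cause of these shifts was not tested.

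The lists give no spread between animals, no read depth and no stated threshold, so a missing peak is not evidence that the mark is absent. Differences between lists in peak width and length bear on every count above.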
